A study of Mus musculus with 8 samples.

Results

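Hi-C libraries of wild-type mouse embryonic stem cells, WT 1 to WT 4, were compared with each other as a measure of how far contact maps of 1 genotype differ. They are 4 of the 8 libraries of the series. They were divided into 2 sets, chosen by measured coverage: the read ends on chromosome 15, divided by those on the other autosomes, were about 1.5-fold higher in WT 1 and WT 2 than in WT 3 and WT 4. Because measured values formed the sets, every difference between them is given as a description, with no test.

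All libraries came from the E14tg2A line (129/Ola), grown without feeder cells on gelatin in serum with LIF, and fixed with 1% formaldehyde for 10 min. The WT libraries are Ring1B+/+. The other 4 libraries came from derivative lines, 2 from Ring1B I53A/I53A cells (I53A) and 2 from Ring1B-/- cells (KO), and serve here only as a yardstick. RING1B is the ubiquitin ligase subunit of the Polycomb complex PRC1, and I53A is a substitution in it. How many clones each line comprises, and whether WT libraries came from separate cultures, is not given in the sources used here, so the spread between libraries may be partly technical. The data hold no expression values, so the cell type rests on the labels.

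Hi-C joins DNA ends that lie close together in fixed nuclei and counts the joined pairs. Pairs within a chromosome become rarer with distance, a decay written P(s), because a chromosome is a folded polymer that occupies its own territory. Pairs between chromosomes record which territories touch, and chromosomes that carry ribosomal DNA can meet at nucleoli. Embryonic stem cells can gain whole chromosomes in culture, and a gained chromosome contributes more DNA and so more read ends.

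WT libraries held 266798241 to 339936752 sequenced pairs and 121369690 to 164477401 unique pairs. The I53A and KO libraries were deeper, with 224243196 to 268942815 unique pairs. No WT library was a copy of another: the chi-square per degree of freedom over the 171 pairs of autosomes was 10.2 for WT 1 with WT 2 and 49.9 for WT 3 with WT 4.

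Chromosome 15 is 103494974 bp long in NCBIM37, the assembly also called mm9, and has 797 protein-coding genes. Among them are Myc, which encodes a growth-promoting transcription factor (chr15:61816946-61821929, plus strand), and Rad21, which encodes a cohesin subunit (chr15:51794151-51823306, minus strand). Its read ends over those of the other autosomes, relative to the mean of WT 3 and WT 4, were 1.48 in WT 1, 1.49 in WT 2, 0.998 in WT 3 and 1.00 in WT 4. These are the values that chose the sets, and the highest library of the low set and the lowest of the high set were far apart. The I53A libraries were at 0.996 and 0.996 and the KO libraries at 0.965 and 0.960, so the high value was measured in 2 of 8 libraries. In KO the denominator includes chromosome 11, whose own ratio was 1.51 and 1.52.

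The excess had the same size in both kinds of pairs. From intrachromosomal pairs alone the chromosome 15 ratio was 1.49 in both WT 1 and WT 2, and from interchromosomal pairs alone it was also 1.49 in both. Chromosome 15 held 6.03% and 6.05% of all read ends in WT 1 and WT 2 and 4.13% and 4.15% in WT 3 and WT 4. Per base, its read ends were 1.49, 1.50, 1.02 and 1.01 times the autosome median in WT 1 to WT 4. Totals of a whole chromosome cannot tell a gain of all of it in every cell from a gain of a segment or in a fraction of cells.

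The balance of contacts within and beyond chromosome 15 overlapped between the sets. Its interchromosomal pairs per intrachromosomal pair, divided by the same ratio among the other 18 autosomes, were 2.19 in WT 1, 2.19 in WT 2, 2.18 in WT 3 and 2.20 in WT 4. A pair among the other 18 was counted once although it joins 2 of them. A value near 2 is therefore built into this ratio and does not mean more interchromosomal contacts of chromosome 15. That was 2.19 ± 0.0095 (SD, n = 4), against 2.21 and 2.24 in I53A and 2.23 and 2.25 in KO.

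The other 18 autosomes differed far less. With chromosome 15 left out, the share of read ends lay on separate sides in the 2 sets for 14 of 18 autosomes (77.8%), 8 higher (44.4%) and 6 lower (33.3%) in WT 1 and WT 2. The largest departure was chromosome 14, with 4.49%, 4.46%, 4.71% and 4.64% of the read ends of these 18 autosomes in WT 1 to WT 4, a log2 ratio of -0.063. Relative to WT 3 and WT 4, with chromosome 15 in the denominator, the other autosomes ran from 0.931 to 1.02 over the WT libraries. These small departures ran with base composition: over the 18 autosomes, the log2 ratio of the sets correlated with GC content at r = 0.777 (Spearman's rho 0.783), where all points share the same 4 libraries. Each library against the WT mean gave r = 0.715, 0.779, -0.915 and 0.186 in WT 1 to WT 4. WT 3 alone had a negative value, and that of WT 4 was weak. Each library is part of the WT mean, so a strong departure of 1 library pushes the others the opposite way. The 4 signs are therefore not independent.

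**Figure D1:**
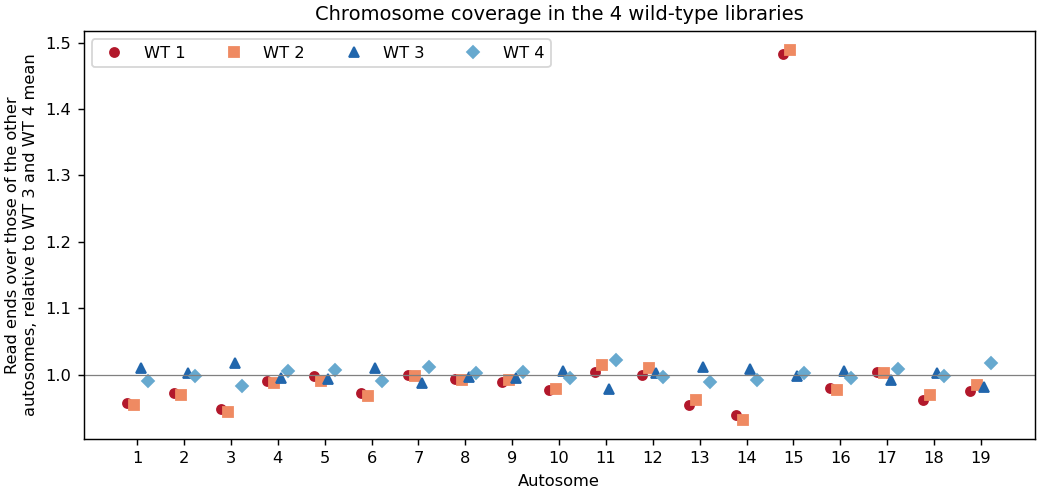
Read ends of each autosome over those of the other autosomes in WT 1 to WT 4, relative to the mean of WT 3 and WT 4. Chromosome 15 sits at 1.48 and 1.49 in WT 1 and WT 2, and the other autosomes lie near 1 in every library.

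The sets also differed in how the sequenced molecules were built, and the labels name no batch for this. Rescued pairs, in which 1 read crosses a ligation junction in the naming of the statistics files, made up 25.6% and 26.0% of unique pairs in WT 1 and WT 2 and 43.1% and 47.2% in WT 3 and WT 4. Unmapped pairs were 12.6% and 11.5% of sequenced pairs against 18.05% and 19.3%. Duplicates were 15.9% and 12.5% of mapped pairs against 21.2% and 20.6%. All 3 measures separated the libraries along the same line as chromosome 15.

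Of pairs closer than 1 kb, 96.2% to 98.2% faced inward in WT, as the ends of an unligated fragment do. At 100 to 178 bp they took 19.1%, 22.4%, 57.2% and 50.8% of pairs under 1 kb in WT 1 to WT 4. At 316 to 562 bp they took 15.6%, 13.8%, 0.741% and 3.03%. Inward pairs thus lay farther apart in WT 1 and WT 2 than in WT 3 and WT 4. Pairs under 1 kb were 44.8%, 39.1% (WT 1 and WT 2), 44.9% and 37.0% (WT 3 and WT 4) of unique pairs, where the sets overlapped. The chromosome 15 set, the distance of inward pairs and the rescued share cannot be told apart as sources of any difference given below.

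**Figure D2:**
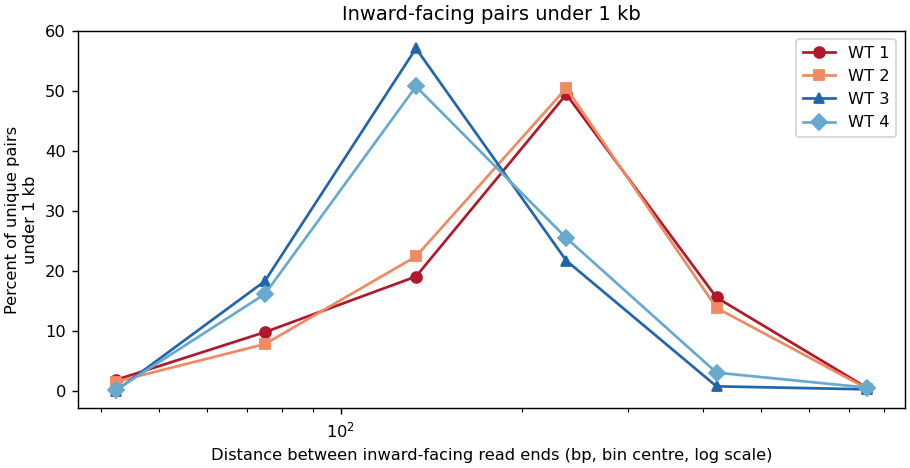
Inward-facing pairs in percent of unique pairs under 1 kb, against the distance between read ends on a log scale, for WT 1 to WT 4. WT 1 and WT 2 peak at 178 to 316 bp, with 49.5% and 50.5%, and WT 3 and WT 4 at 100 to 178 bp, with 57.2% and 50.8%.

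The interchromosomal share barely differed between the sets. As a percent of interchromosomal pairs plus intrachromosomal pairs at 1 kb or more, it was 19.5% in WT 1, 20.7% in WT 2, 19.9% in WT 3 and 20.02% in WT 4. The mean was 20.01% ± 0.508 (SD, n = 4), and the sets overlapped, with WT 1 lowest and WT 2 highest. The set means differed by 0.129 percentage points. The sign turned with the pairs counted: the difference was -0.486 at 10 kb or more and -0.109 over all unique pairs. Over all distances again, but without chromosome 15, it was -0.311. Wilson 95% intervals, which cover counting error only, reached at most 0.00957 points to either side. Both I53A libraries (18.3% and 18.6%) and both KO libraries (21.8% and 22.6%) lay outside the WT range, I53A below and KO above. Over all unique pairs both lines lay above it: WT ran from 10.7% to 12.6%, I53A was at 12.8% and 16.4%, and KO at 17.3% and 16.4%.

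The order of the autosomes was the same at both ends in every WT library: chromosomes 19 and 17 were highest and chromosome 1 lowest. The interchromosomal share of a chromosome's read ends was highest for chromosome 19, at 1.16, 1.15, 1.16 and 1.18 times the autosome median of each library in WT 1 to WT 4, and next for chromosome 17, at 1.11, 1.11, 1.12 and 1.12. The lowest were chromosome 1, at 0.885, 0.895, 0.893 and 0.890, and, in the mean over WT, chromosome 3, at 0.927, 0.932, 0.917 and 0.915. Chromosome 2 was next, at 0.913, 0.923, 0.930 and 0.926, so it was below chromosome 3 in WT 1 and WT 2 and above it in WT 3 and WT 4. Shorter chromosomes had the higher shares: over 19 autosomes the WT mean correlated with length at r = -0.885, with all points from the same libraries. Chromosome 15 was at 1.00 and 1.01 in WT 1 and WT 2 and 1.02 and 1.03 in WT 3 and WT 4, without overlap. This gap is not independent of how the sets were chosen. The autosome median includes pairs with chromosome 15, and more read ends of chromosome 15 raise it. Against the other 18 autosomes among themselves, as given above, the balance of chromosome 15 overlapped between the sets.

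P(s) differed more than the interchromosomal share. The share per bin peaked at 316 to 562 kb in WT 1, WT 2 and WT 3 and at 178 to 316 kb in WT 4, with a smaller peak at 17.8 to 31.6 Mb in all 4. In 4 of 5 distance classes, given in percent of intrachromosomal pairs at 1 kb or more, the 2 sets lay on separate sides. Pairs at 1 to 10 kb made up 10.9%, 8.95%, 11.4% and 14.8% in WT 1 to WT 4. Pairs at 10 to 100 kb made up 21.9%, 21.2%, 22.6% and 23.0%. Both short classes were lower in WT 1 and WT 2.

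The middle classes ran the other way. Pairs at 100 kb to 1 Mb made up 33.9%, 35.1%, 33.4% and 30.8% in WT 1 to WT 4, and pairs at 1 to 10 Mb 18.7%, 18.3%, 16.5% and 15.3%. At 10 Mb and over the values were 14.6%, 16.5%, 16.1% and 16.2%, and the sets overlapped. With only pairs at 10 kb or more counted they did not, and WT 1 and WT 2 were lower by a mean difference of -1.29 percentage points, against -0.56 here. The difference at 10 to 100 kb then went from -1.24 to -2.31 and that at 100 kb to 1 Mb from 2.37 to 1.35, with the same sides. Over the 4 libraries the SD of the 5 classes, from short to long, was 2.42, 0.793, 1.80, 1.60 and 0.833 percentage points.

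Over 22 distance bins, 15 (68.2%) lay on separate sides, 7 higher (31.8%) and 8 lower (36.4%) in WT 1 and WT 2. The largest log2 ratios were at the shortest distances, -0.55 at 1 to 1.78 kb, -0.49 at 1.78 to 3.16 kb and -0.40 at 3.16 to 5.62 kb. At 1 to 1.78 kb the libraries held 1.40%, 1.14%, 1.49% and 2.23% of intrachromosomal pairs at 1 kb or more. WT 2 stood lowest and WT 4 highest, with WT 1 and WT 3 close together. The log2 ratio of WT 4 over WT 3, inside a set, was 0.59, as large as the ratio between sets, and that of WT 2 over WT 1 was -0.30. The ratio shrank with distance to -0.05 at 31.6 to 56.2 kb, reached 0.26 at 1 to 1.78 Mb and 0.25 at 1.78 to 3.16 Mb, and was -0.15 at 31.6 to 56.2 Mb. At 1 to 1.78 Mb the libraries held 6.47%, 6.29%, 5.65% and 5.00%, with WT 4 lowest. Within a set the log2 ratio there was -0.041 for WT 2 over WT 1 and -0.18 for WT 4 over WT 3. Returning to 1 to 1.78 kb, read orientation was close to balanced, with 26.7%, 26.4%, 25.6% and 25.7% of pairs facing inward.

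The decay slope depended on the window. From 100 kb to 10 Mb the slope of log10 pairs per base against log10 distance was -1.24, -1.26, -1.28 and -1.27 in WT 1 to WT 4, so WT 1 and WT 2 were shallower by 0.026. From 1 to 31.6 Mb it was -1.11, -1.05, -1.02 and -0.99, so WT 1 and WT 2 were steeper, by 0.077. The sets did not overlap in either window. Pairs at 10 Mb and over per pair at 1 to 10 Mb numbered 0.781, 0.903, 0.971 and 1.06.

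**Figure D3:**
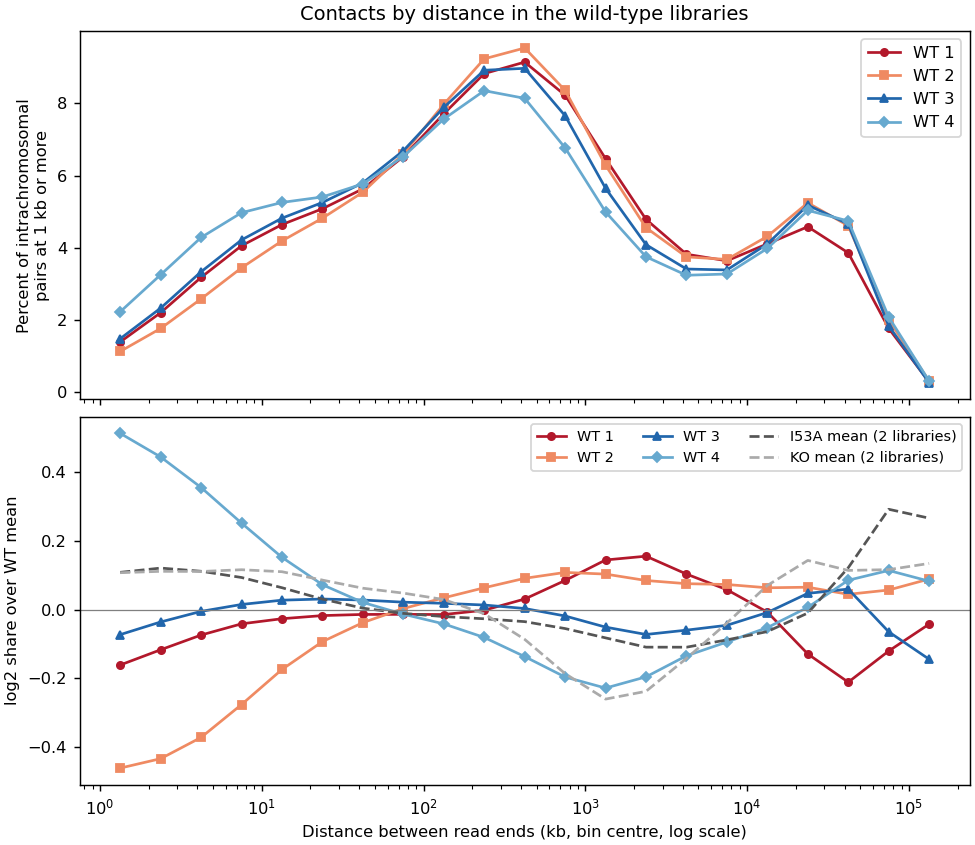
Intrachromosomal pairs by distance on a log axis for WT 1 to WT 4, as percent of pairs at 1 kb or more per bin (top) and as log2 of that share over the WT mean (bottom), where dashed lines are the means of the 2 I53A and the 2 KO libraries. WT 1 and WT 2 lie below WT 3 and WT 4 up to 56.2 kb and above them from 316 kb to 17.8 Mb.

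Set against this spread, few bins placed a RING1B line outside WT. Both I53A libraries lay outside the WT range on the same side in 2 of 22 bins (9.09%), which were 56.2 to 100 Mb and 100 to 178 Mb, and both were higher there. Both KO libraries did so in 1 of 22 (4.55%), 56.2 to 100 kb, also higher. With edgeR's quasi-likelihood test, 0 of 22 bins (0%) passed an adjusted p of 0.05 in I53A against WT, with 1 at an unadjusted p under 0.05, and 0 of 22 (0%) in KO, with 0 unadjusted. DESeq2 called 0 bins in both lines. With WT 1 and WT 2 alone, or WT 3 and WT 4 alone, as control, 0 bins passed as well.

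Contact preference between chromosomes was measured as log2 of observed over expected pairs, where the expected count follows from the interchromosomal totals of both autosomes. An extra copy of a chromosome raises its total and so largely drops out of this measure. Over the 171 pairs of autosomes the SD over WT 1 to WT 4 had a median of 0.0084, from 0.0008 to 0.065, against a median counting error of 0.0047 on the same log2 scale. Preferences were small: the WT means ran from -0.10 to 0.14. In all 4 WT libraries 59 pairs were above 0 and 71 below.

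The 4 highest WT means were chromosomes 18 with 19 (0.14), 16 with 19 (0.13), 2 with 9 (0.11) and 12 with 19 (0.11). For 18 with 19 the libraries stood at 0.19, 0.14, 0.13 and 0.11 in WT 1 to WT 4. The 4 lowest were 1 with 19 (-0.10), 11 with 12 (-0.09), 3 with 19 (-0.08) and 2 with 19 (-0.07). Chromosome 1 with 19 was steady, at -0.11, -0.10, -0.09 and -0.10. Chromosome 19, the shortest autosome, thus took part in both the highest and the lowest.

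Preference ran in part with length. Among the 5 longest autosomes 9 of 10 pairs were above 0 in every WT library, against 59 of all 171 pairs. Of the 25 pairs of the 5 longest with the 5 shortest 18 were below 0 in every WT library, against 71 of all 171. The 5 shortest are chromosomes 15 to 19, and all but 17 are also on the list of ribosomal DNA chromosomes below. Length and that list therefore overlap. Over all pairs the WT mean correlated with the absolute log2 ratio of the lengths at r = -0.253 (n = 171), across pairs that share chromosomes and libraries.

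The 5 least steady pairs in WT were 12 with 19, 2 with 9, 16 with 19, 12 with 16 and 12 with 18. Chromosome 12 with 19 stood at 0.20, 0.10, 0.069 and 0.058 in WT 1 to WT 4 (SD 0.065). Chromosome 2 with 9 stood at 0.12, 0.081, 0.19 and 0.046 (SD 0.061), so its extremes were WT 3 and WT 4, inside the same set. Both I53A libraries (0.035 and 0.017) and both KO libraries (0.022 and 0.023) were below all WT libraries for that pair. The steadiest pairs were 6 with 11 (SD 0.0008) and 6 with 17 (SD 0.0013).

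Between the 2 sets, 94 of 171 pairs (55%) lay on separate sides, 44 higher (25.7%) and 50 lower (29.2%) in WT 1 and WT 2. The median absolute difference between set means was 0.0090, against 0.0076 between WT 1 and WT 2 and 0.0077 between WT 3 and WT 4. The first compares means of 2 libraries and the others single libraries, so these medians are not on an equal footing. The 3 largest in the upward direction were 12 with 19 (0.089), 12 with 16 (0.085) and 16 with 19 (0.077). The 3 largest in the other were 5 with 19 (-0.036), 11 with 12 (-0.034) and 6 with 19 (-0.029).

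The partners of chromosome 15 were similar in both sets. Of its 18 pairs 6 (33.3%) lay on separate sides, 3 in each direction, while 88 of the pairs without it did (57.5%). That low share was not particular to chromosome 15. Counted 1 chromosome at a time, it was also 33.3% for chromosome 6 and was 27.8% for chromosome 9. The highest was 77.8%, for chromosomes 4 and 19. The WT mean preference was above 0 for 8 of its 18 partners, and in every WT library for 7. Its preferred partner was chromosome 11, at 0.11, 0.087, 0.098 and 0.086 in WT 1 to WT 4. Next came chromosome 19, at 0.059, 0.075, 0.063 and 0.069. Its least preferred was chromosome 12, at -0.088, -0.086, -0.055 and -0.064, followed by chromosome 2, at -0.050, -0.044, -0.070 and -0.061. Chromosome 11 was the highest partner in every WT library, while the lowest was chromosome 12 in WT 1, WT 2 and WT 4 and chromosome 2 in WT 3. The largest differences between the sets were with chromosomes 12 (-0.028), 8 (-0.020) and 2 (0.018), smaller than the largest among the pairs without chromosome 15. Its partners had a median SD of 0.0075 over WT, against 0.0175 for chromosome 19, 0.0133 for chromosome 12, 0.0122 for chromosome 14 and 0.0120 for chromosome 16, and against 0.0060 for chromosome 1. Chromosome 15 was therefore not among the chromosomes whose partners varied most.

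**Figure D4:**
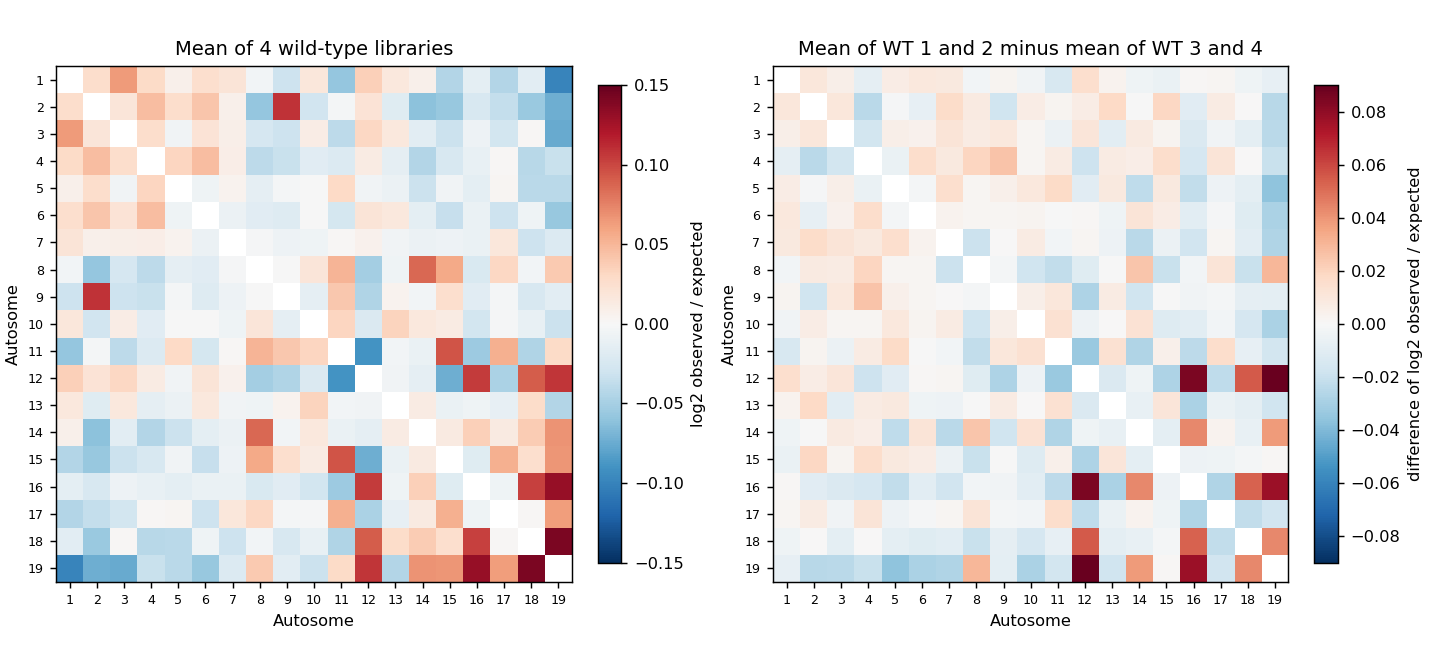
Contact preference (log2 observed over expected) of all pairs of the 19 autosomes, as the mean over WT (left) and as the mean of WT 1 and WT 2 minus that of WT 3 and WT 4 (right). The mean runs from -0.10 to 0.14, and the difference is largest for 12 with 19 (0.089), 12 with 16 (0.085) and 16 with 19 (0.077).

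Chromosomes 12, 15, 16, 18 and 19 carry ribosomal DNA in many laboratory strains, though which of them do so in this line was not measured here. All 6 pairs among 12, 16, 18 and 19 were higher in WT 1 and WT 2, by 0.043 to 0.089, with no overlap, where 25.7% of all pairs were. The median of these 6 pairs was 0.17 in WT 1, 0.12 in WT 2, 0.070 in WT 3 and 0.076 in WT 4, while the median of the set difference over all 171 pairs was -0.0008. WT 1 was highest and WT 3 and WT 4 were close together. The 4 pairs with chromosome 15 did not do the same: 12 with 15 was lower in WT 1 and WT 2, and the other 3 overlapped. Singled out after its values were seen, chromosome 14, which is not on the list, was also higher in WT 1 and WT 2 with 16 (0.058, 0.056, 0.0098 and 0.017 in WT 1 to WT 4) and with 19 (0.10, 0.068, 0.047 and 0.048).

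The same 6 pairs had a wide range in WT, which is not typical of all pairs. Their median SD over WT was 0.043, against 0.0084 over all 171 pairs. Their median was 0.074 and 0.088 in the I53A libraries and 0.12 and 0.14 in the KO libraries, all inside the WT range of 0.070 to 0.17. Pair by pair, both I53A libraries were below every WT library for 12 with 18 (0.046 and 0.051) and 12 with 19 (0.045 and 0.038), and both KO libraries lay outside the WT range in 0 of the 6. In both lines' fits against WT, only 12 with 18 in KO passed among these 6 (log2 difference 0.05, edgeR adjusted p = 0.048).

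**Figure D5:**
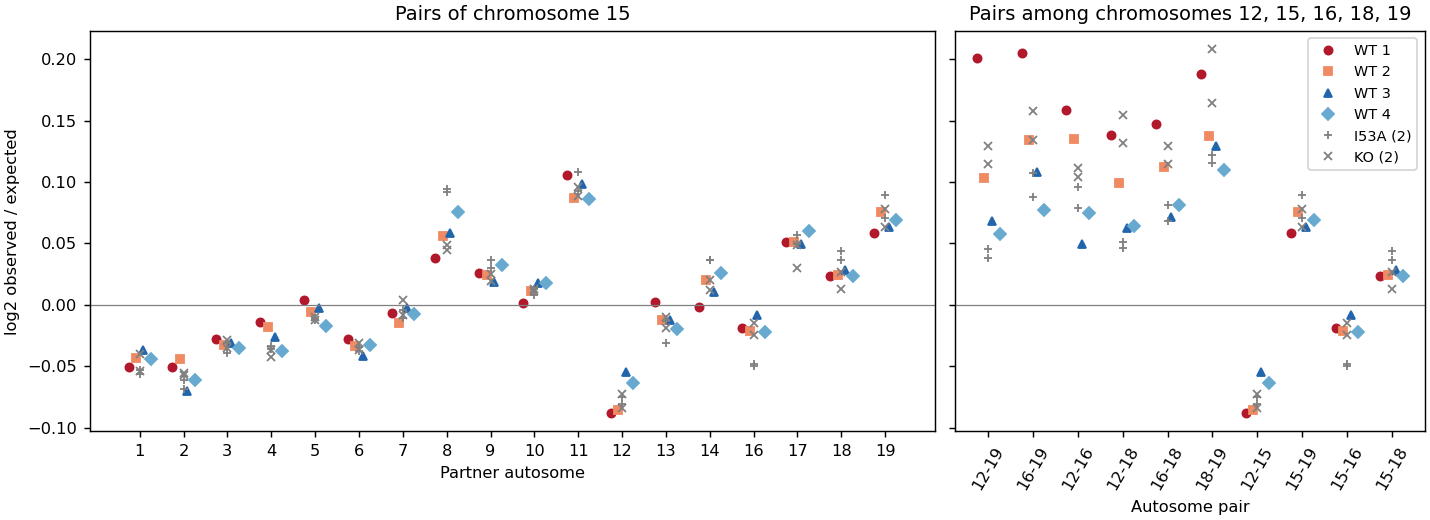
Contact preference (log2 observed over expected) by library, for the 18 pairs of chromosome 15 (left) and the 10 pairs among chromosomes 12, 15, 16, 18 and 19 (right), with coloured symbols for WT and grey symbols for the I53A and KO libraries. The pairs among chromosomes 12, 16, 18 and 19 are higher in WT 1 and WT 2 than in WT 3 and WT 4, while 12 with 15 is lower.

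WT 1 had the strongest contrast among WT libraries. The SD of preference over the 171 pairs was 0.051, 0.042, 0.037 and 0.036 in WT 1 to WT 4, against 0.038 and 0.042 in I53A and 0.044 and 0.0499 in KO. Between libraries, over the same 171 pairs, r was 0.954 for WT 1 with WT 2, 0.909 for WT 3 with WT 4 and 0.862 to 0.937 across the sets. It was 0.987 for the 2 I53A libraries and 0.992 for the 2 KO libraries, which are deeper, so each line was more alike within itself than WT was. WT 2 with WT 4 (0.937) was closer than WT 3 with WT 4.

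Which WT libraries served as control changed how many pairs were called in the RING1B lines. With all 4, edgeR's quasi-likelihood test called 4 of 171 pairs in I53A (2.34%) at an adjusted p under 0.05. They were chromosomes 8 with 15 and 8 with 18 (higher, log2 differences of 0.038 and 0.041) and 4 with 18 and 15 with 16 (lower, -0.027 and -0.030). With WT 1 and WT 2 as control 32 were called (18.7%), and with WT 3 and WT 4 3 were (1.75%). A fit with 2 WT libraries also estimates the shared spread without the other 2. The counts thus mix a change of control level with a change of that estimate, in KO as well.

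In KO more pairs were called with WT 3 and WT 4 as control. With all 4 WT libraries 16 pairs were called (9.36%), 7 higher and 9 lower, with WT 1 and WT 2 24 (14%) and with WT 3 and WT 4 32 (18.7%). The 2 lines share these controls. Chromosome 2 with 9, the pair with the next to largest SD in WT, was among the KO calls (log2 difference -0.080, adjusted p = 0.029) and was not called in I53A (-0.077, adjusted p = 0.077). Without regard to a test, both I53A libraries lay outside the WT range on the same side in 51 of 171 pairs (29.8%) and both KO libraries in 46 (26.9%).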

How the data were processed

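Per the labels, Hi-C libraries were cut with DpnII. Per the submitters' processing notes, the genome build was mm9. The aligner is not given in the sources used here. The authors deposited raw counts of read pairs per library: 409 statistics, among them 231 chromosome pairs and 38 distance bins in 4 orientations. The chromosome pairs sum to the unique pairs, those left after removal of duplicates, and the distance bins sum to the intrachromosomal pairs. Totals of sequenced and mapped pairs include duplicates. The 3 genotype columns, sums over libraries, were not used.

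From these counts, shares, slopes and log2 observed over expected were computed in Python 3.11.15. Expected counts came from iterative proportional fitting that left the diagonal empty. Autosome pairs (171) and distance bins (22, from 1 kb, mean count at least 10) were tested with edgeR 4.0.16, 1 mean per genotype over 8 libraries. For autosome pairs the negative binomial dispersion was set to 0, since the estimate lay at the lowest value edgeR's grid allows, and the quasi-likelihood dispersion took up the spread. This choice followed a test on simulated data, in which all pairs had 1 common dispersion. P-values were adjusted by Benjamini-Hochberg. Alternatives used DESeq2 1.42.0 and limma 3.58.1.

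The libraries and lists were chosen with earlier results of these data known. Named features follow a rule: all distance classes, the largest and smallest values and differences, chromosome 15, and pairs of chromosomes with ribosomal DNA. Lists by length came from the annotation.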

Additional observations from a re-analysis of the deposited data

Results flagged for a closer look

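In the bin from 31.6 to 56.2 Mb WT 1 stood apart from the other WT libraries: it held 3.86% of intrachromosomal pairs at 1 kb or more, against 4.61%, 4.66% and 4.75% in WT 2, WT 3 and WT 4. Of 92 measures looked at in this way 1 had a library that far from the rest, where chance gives about 4.6.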

How the results depend on the processing

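The WT mean interchromosomal share, 20.01%, was 11.7% of all unique pairs, 22.0% at 10 kb or more and 11.1% without chromosome 15 at all distances, and 19.8% to 20.2% without each library in turn. The decay slope of -1.26 became -1.04 from 1 to 31.6 Mb. With a lower limit of 10 kb the 4 longer classes held 25.1%, 37.6%, 19.4% and 17.9%, since fewer pairs enter. Same-strand pairs moved slope and classes by less than 1 SD. The count of 94 autosome pairs on separate sides was 104 of 171 with an expected count from the product of totals, 92 without chromosome 15 and 105 with chromosome X, and the 6 pairs among chromosomes 12, 16, 18 and 19 were higher in WT 1 and WT 2 in each.

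Calls of autosome pairs varied with the setting, and the cause was not tested. TMM scaling was run on pair counts without the expected count, so its calls concern counts and not contact preference. Such counts carry differences in chromosome coverage. In I53A the 4 calls became 32 with WT 1 and WT 2 only, 19 with DESeq2, 0 with TMM scaling (9 at an unadjusted p under 0.05), 35 with the estimated dispersion and 3 with limma. Leaving out libraries gave 0 to 23: 9 without WT 1, 23 without WT 4, and 0 without WT 2, I53A 1 or I53A 2 (30, 27 and 18 at an unadjusted p under 0.05 in edgeR). In KO the 16 calls became 32 with WT 3 and WT 4 only, 32 with TMM scaling (30 higher, 2 lower), 20 with DESeq2, 70 with the estimated dispersion and 0 with limma (33 unadjusted). Leaving out libraries gave 0 to 26: 26 without WT 1, 5 without WT 2 and 0 without KO 2 (24 unadjusted in edgeR). The estimated dispersion and limma were added after the data were seen. On simulated counts the estimated dispersion made more false calls than the setting used. The simulation gave all pairs 1 common dispersion, while the measured SD over WT ran from 0.0008 to 0.065. It therefore cannot tell which setting suits the measured counts.

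With the replicate number as a block, the replicate block gave 31 autosome pairs in I53A, 31 in KO, and 10 and 12 distance bins. The labels tie the numbers to no shared batch. Deviations from the genotype mean over distance bins correlated at -0.315 for WT 1 with I53A 1 and -0.333 for WT 1 with KO 1. They correlated at 0.947 for WT 2 with I53A 2, 0.963 for WT 2 with KO 2 and 0.976 for I53A 1 with KO 1. Over autosome pairs the same 5 values, in this order, were -0.265, -0.396, 0.227, 0.114 and 0.396. In a line of 2 libraries the deviations mirror each other, so these values are not independent. Whether the numbers pair the libraries was not settled.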
